A study of Mus musculus with 6 samples.

Results

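GABA synthesis and interneuron subtype genes are the mRNAs by which inhibitory neurons of the cortex are recognised. The 9 genes examined here were grouped by function, with earlier results of these data known, and read from the deposited counts by gene name. Gad1, Gad2 and Slc32a1 make and package GABA, Sst, Npy, Vip and Cck encode neuropeptides, and Pvalb and Calb1 encode calcium-binding proteins. All 9 were found among the 55367 rows of the count table, and all 9 were among the 16976 genes that had enough counts to be tested. Vip passed the filter on low counts through its WT libraries alone.

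The libraries came from cells of the cerebral cortex of P1 (postnatal day 1) pups that had been kept for 2 days in vitro (2DIV). Pups were wild type (WT, n = 3 libraries) or Fmr1-KO (n = 3 libraries), both of strain C57BL/6J. Fmr1-KO mice lack FMRP, the RNA-binding protein missing in fragile X syndrome, in every cell, so neither the cell type nor the time of the loss was restricted. Before plating, the cells were depleted of astrocytes and myelin with magnetic beads, according to the methods of the study, and neither label nor method names a sort for interneurons. The sex of the pups and the number pooled per library are not given in the sources used here, and the p-values measure the spread between these 6 libraries.

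GABA is made from glutamate by the enzymes GAD67 and GAD65, the products of Gad1 and Gad2, and is loaded into synaptic vesicles by VGAT, the product of Slc32a1. Cortical interneurons are born in the ventral forebrain, migrate into the cortex before and around birth, and then acquire their subtype. Sst and Pvalb mark the main classes from the medial ganglionic eminence, while Vip and many Cck interneurons derive from the caudal eminence. Npy is shared by Sst neurons and neurogliaform cells, and Calb1 by several classes. Peptide genes are switched on gradually and respond to neuronal activity through the cAMP response element and its binding protein CREB, and Pvalb appears late, after the age studied here. None of these genes belongs to interneurons alone, since Cck is also made by pyramidal neurons and Npy and Gad genes can be found outside the interneuron classes.

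The start-proximal DNA of the peptide genes is shown first because Vip, Sst and Npy had the largest decreases of the 9 genes and Cck the largest increase. Each line gives the 250 bases before the RefSeq start site in GRCm38.p6, 5′ to 3′ on the strand of the gene. Capitals mark every match, on either strand, to any of 4 motifs. The cAMP response element was searched as TGACGTCA. A core bound by many homeodomain proteins was searched as TAATTA. For the TATA box the letters were TATAAA. The E-box, a site of basic helix-loop-helix factors, was searched as CAGCTG.
Sst, chr16:23890845-23891094, minus strand: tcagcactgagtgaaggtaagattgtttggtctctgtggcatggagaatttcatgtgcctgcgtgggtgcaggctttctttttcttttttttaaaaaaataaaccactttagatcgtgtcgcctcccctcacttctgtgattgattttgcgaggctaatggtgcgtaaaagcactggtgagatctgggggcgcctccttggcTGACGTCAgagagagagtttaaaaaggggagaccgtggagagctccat
Npy, chr6:49822460-49822709, plus strand: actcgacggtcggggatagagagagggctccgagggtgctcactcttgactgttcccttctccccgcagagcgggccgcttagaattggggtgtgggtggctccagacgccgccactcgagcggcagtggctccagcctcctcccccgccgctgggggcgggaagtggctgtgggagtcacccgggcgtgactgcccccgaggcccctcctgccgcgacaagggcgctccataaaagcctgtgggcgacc
Vip, chr10:5638968-5639217, plus strand: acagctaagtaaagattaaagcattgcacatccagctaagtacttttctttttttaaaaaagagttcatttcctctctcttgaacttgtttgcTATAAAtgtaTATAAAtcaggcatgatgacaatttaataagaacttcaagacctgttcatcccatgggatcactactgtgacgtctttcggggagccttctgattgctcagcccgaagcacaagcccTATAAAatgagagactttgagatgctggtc
Cck, chr9:121495695-121495944, minus strand: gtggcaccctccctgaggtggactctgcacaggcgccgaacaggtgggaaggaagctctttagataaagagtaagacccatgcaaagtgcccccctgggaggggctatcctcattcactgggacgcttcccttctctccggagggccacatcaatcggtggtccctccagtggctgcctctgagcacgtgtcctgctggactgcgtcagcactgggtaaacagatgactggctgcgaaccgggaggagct
The whole window searched ran from 250 bases before to 50 bases after the start. RefSeq windows were matched for 8 of the 9 members, Calb1 being the other. The palindrome TGACGTCA was found in Sst alone among the 8, beginning 48 bases before the start, and 1.79% of all 32851 windows of this length hold it. Vip held 3 TATAAA matches, beginning 157, 147 and 30 bases before its start, and Gad1 held 1 on the opposite strand, beginning 141 bases before its start. That motif was present in 13.6% of all windows. Npy, Cck, Gad2, Slc32a1 and Pvalb held none of the 4 motifs, which says only that these letters are not in this window. The same limit applies to TGACGTCA in Vip. Only exact matches were marked, so variants such as the tgacgtct printed for Vip were not. The homeodomain core and the E-box, present in 5.29% and 16.3% of all windows, were in no member window.

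Total counts ran from 30348556 to 35126207 per library. Fmr1 itself, the gene disrupted in the mutant, averaged 113.4 ± 4.50 CPM in WT libraries and 57.4 ± 3.67 CPM in mutant ones (SD, n = 3 each). CPM here is the share of a library's total that a gene takes, after edgeR's TMM scaling. Transcript remained at 50.6% of the WT mean, and the 3 Fmr1-KO libraries were the 3 lowest, so no label was contradicted. A count per gene does not show which allele the reads came from, so it does not verify the knockout either. Pan-neuronal mRNAs were abundant in each library, with 8 genes summing to between 4202 and 4953 CPM. Glial mRNAs were present too: 7 astrocyte genes summed to between 4140 and 4896 CPM, and 8 oligodendrocyte lineage genes to between 1075 and 2046 CPM.

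Relative to WT, the mRNAs for the peptides Sst, Npy and Vip were lower in Fmr1-KO by more than 5-fold, while the mRNAs for the GABA-synthesizing enzymes differed far less. Gad1 was slightly lower (84.4% of WT) and Gad2 slightly higher (112% of WT). Slc32a1 and Calb1 were lower to an intermediate degree, and Cck was higher. Of the 9 members, 6 were called lower and 2 were called higher at an adjusted P under 0.05, and Pvalb was not called. Among all tested genes, 42.6% were called, 21.9% lower and 20.7% higher. The libraries of the genotypes did not overlap for any of the 9 members, Pvalb included, where 51.7% of all tested genes showed no overlap. The median log2 fold-change was -0.53 for the members and 0.01 for all tested genes. Only 52 tested genes had a log2 fold-change of -2 or lower, and Sst and Npy were among them. Vip was also among these 52 and among the 6 called lower, but it was tested only through its WT libraries. A gene this low in Fmr1-KO could be tested only if it was higher in WT, so its place there adds no weight. Because these are bulk libraries, fewer cells of a type and less RNA per cell cannot be told apart.

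**Figure D1:**
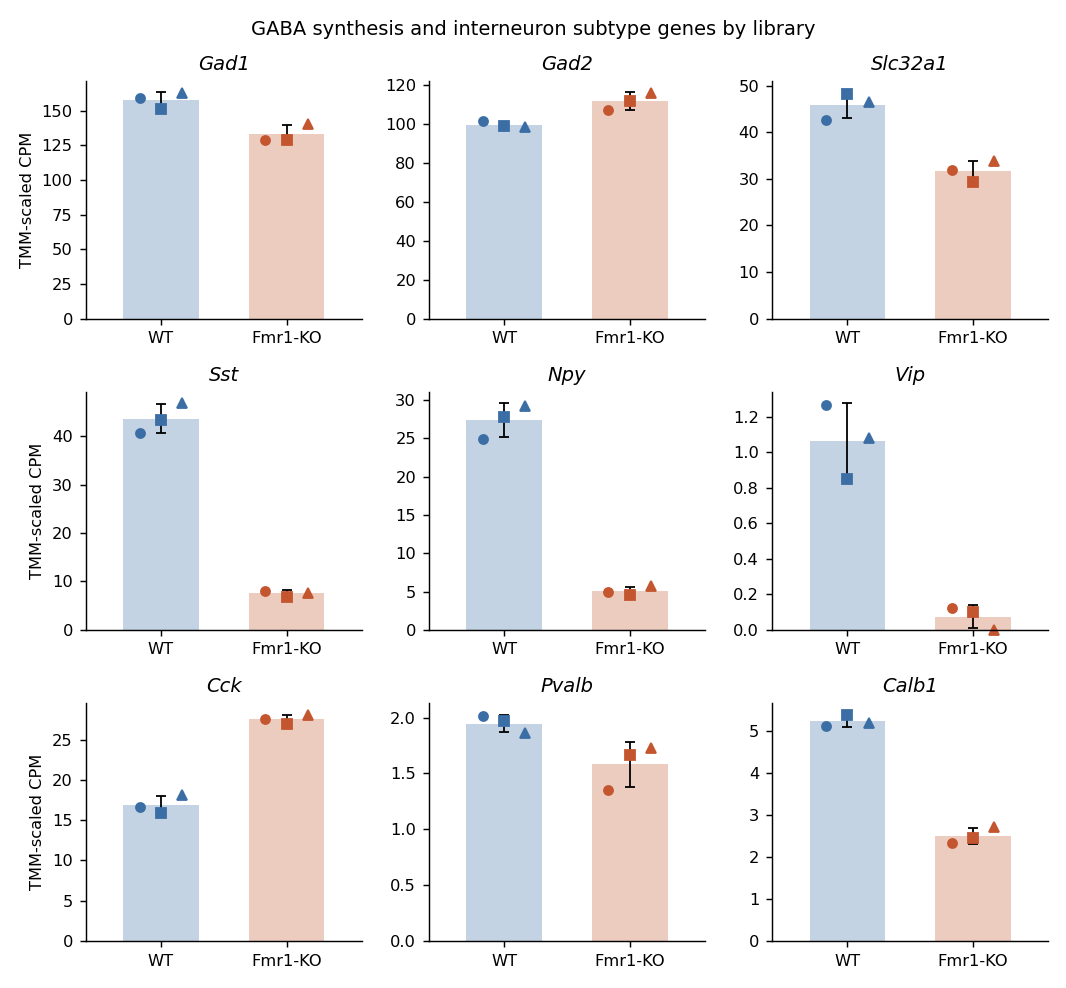
TMM-scaled CPM (y axis, from 0, scale differing by panel) of each of the 9 genes in WT (blue) and Fmr1-KO (orange) libraries. Bars are means, error bars are the SD of 3 libraries, and circle, square and triangle are replicates 1, 2 and 3; the tallest WT to Fmr1-KO drops are those of Sst, Npy and Vip, and Gad2 and Cck are the panels in which Fmr1-KO is higher.

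The enzymes and the transporter were taken first. Gad1 lies on chromosome 2 from 70553072 to 70602014 (GRCm38, GENCODE M21) and had 158.8, 151.0 and 162.4 CPM in WT replicates 1, 2 and 3. In Fmr1-KO it had 128.9, 129.1 and 140.7 CPM. Every mutant library was below every WT library, and the gap between the nearest libraries was about as wide as the spread within a genotype. Its log2 fold-change of -0.24 (SE 0.04) passed the quasi-likelihood test of edgeR (adjusted P 2.19e-05). Gad2, also on chromosome 2 (22622205 to 22693874), moved the other way, from 101.2, 98.6 and 98.4 CPM in WT to 106.9, 111.8 and 115.9 CPM in Fmr1-KO. Here each mutant library was above each WT library. Gad2 thus rose by 0.17 on the log2 scale (SE 0.04; edgeR adjusted P 0.00071). Both calls concern small differences and were lost when a change of more than 1.2-fold was required, where the adjusted P by edgeR was 1 for each.

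Slc32a1 encodes the vesicular transporter that both enzymes depend on for release of their product. It lies on chromosome 2 from 158610767 to 158615748, where exons of an annotated gene on the opposite strand overlap it, and the counts were made with regard to strand. It had 42.7, 48.1 and 46.5 CPM in WT and 31.8, 29.4 and 33.8 CPM in Fmr1-KO. The highest mutant library was below the lowest WT library. The mean in Fmr1-KO was 69.2% of WT, or -0.53 as a log2 fold-change (SE 0.05, edgeR adjusted P 8.16e-08).

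Sst encodes somatostatin, the peptide of the dendrite-targeting Martinotti cells. The gene lies on chromosome 16 from 23889573 to 23890958, on the minus strand, and the TGACGTCA palindrome printed above lies in its promoter window. Its level was 40.7, 43.4 and 46.8 CPM in WT and 8.06, 6.86 and 7.67 CPM in Fmr1-KO. The mutant libraries lay within a narrow range far below WT, at 17.3% of the WT mean. On the log2 scale Sst fell by 2.53 (SE 0.07, edgeR adjusted P 2.32e-16). In the order of log2 fold-changes it was number 23 from the bottom of the 16976 tested genes.

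Npy encodes neuropeptide Y and lies on chromosome 6 from 49822710 to 49829507. It was counted 868, 920 and 978 times in WT and 162, 138 and 197 times in Fmr1-KO, or 27.4 ± 2.20 and 5.05 ± 0.580 CPM (SD, n = 3). As with Sst, no mutant library came near a WT library. The mean fell to 18.5% of WT, with a log2 fold-change of -2.43 (SE 0.08; adjusted P 5.16e-15 by edgeR). It was number 31 from the bottom of all tested genes.

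Vip, the gene for vasoactive intestinal peptide, lies on chromosome 10 from 5639218 to 5647617 and was the member with the fewest counts. It was counted 44, 28 and 36 times in WT replicates 1, 2 and 3, against 4, 3 and 0 times in those of Fmr1-KO. Every WT library thus had at least 28 counts and no mutant library more than 4. Summed over libraries, 7 counts in Fmr1-KO against 108 in WT gave a level of 6.83% of WT relative to library totals, with a 95% exact interval of 2.68% to 14.6% that covers counting error only. The model put the log2 fold-change at -3.83 (SE 0.44, edgeR adjusted P 4.26e-07), and its interval, -4.75 to -2.90, was the widest of the 9. Single libraries moved this estimate, to -4.43 without Fmr1-KO replicate 1 and to -3.22 without Fmr1-KO replicate 3, and the call held in both. At this depth the mRNA was close to the lower limit of what could be counted in the mutant.

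Cck, the gene for cholecystokinin, was the peptide gene that rose. It lies on chromosome 9 from 121489824 to 121495694 and had 16.6, 15.9 and 18.2 CPM in WT and 27.6, 27.0 and 28.1 CPM in Fmr1-KO. The mutant libraries were closely spaced and all above WT. Its mean was 163% of WT, which is a rise of 0.71 on the log2 scale (SE 0.06, edgeR adjusted P 3.47e-09).

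Calb1 encodes calbindin, a calcium buffer of several interneuron classes and of other neurons. It lies on chromosome 4 from 15881264 to 15908064 and was counted 178, 178 and 173 times in WT and 76, 75 and 94 times in Fmr1-KO, or 5.23 ± 0.137 and 2.50 ± 0.187 CPM (SD, n = 3). The genotypes were well separated, with Fmr1-KO at 47.7% of WT. Calb1 fell by 1.06 on the log2 scale (SE 0.12, edgeR adjusted P 1.80e-07). Pvalb encodes parvalbumin, the calcium buffer of fast-spiking basket cells, and lies on chromosome 15 from 78191114 to 78206400. It was low in all libraries, at 2.01, 1.97 and 1.86 CPM in WT and 1.35, 1.67 and 1.72 CPM in Fmr1-KO. Although the libraries did not overlap, its log2 fold-change of -0.30 did not pass the threshold (adjusted P 0.155 by edgeR). The 95% interval of that change, from -0.64 to 0.04, includes no change as well as a decrease of the size seen for Slc32a1.

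**Figure D2:**
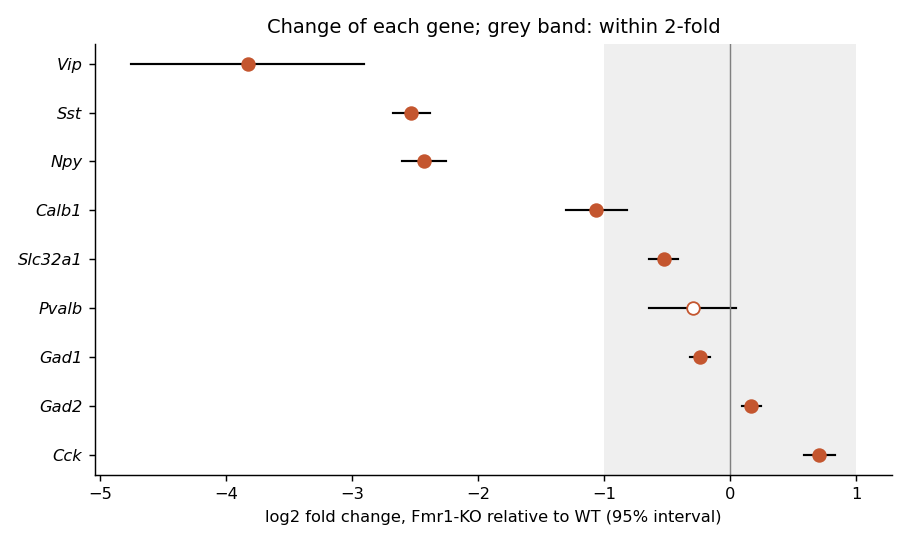
Log2 fold-change of each gene in Fmr1-KO relative to WT (x axis) with its 95% interval (line), filled where the adjusted P by edgeR was under 0.05 and open for Pvalb. The grey band spans 2-fold in either direction; Vip (-3.83), Sst (-2.53) and Npy (-2.43) lie well outside it, and Cck (0.71) is farthest to the right.

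Levels were then compared between genes per kilobase of exon, since longer mRNAs yield more reads. In WT the order was Sst (60.5 ± 4.21 CPM per kilobase; SD, n = 3), Npy (48.4 ± 3.89), Gad1 (20.6 ± 0.760), Gad2 (16.9 ± 0.270), Slc32a1 (16.4 ± 1.00) and Cck (12.9 ± 0.890). Pvalb (1.87 ± 0.0768), Calb1 (1.08 ± 0.0283) and Vip (0.313 ± 0.0617) came last on the same scale. Only Gad2 and Slc32a1 were neighbours whose WT libraries overlapped. In Fmr1-KO, by contrast, Cck was first with 21.1 ± 0.430 CPM per kilobase, followed by Gad2 (19.0 ± 0.773), Gad1 (17.4 ± 0.888), Slc32a1 (11.3 ± 0.788), Sst (10.4 ± 0.848) and Npy (8.92 ± 1.02). Gad2 overlapped with Gad1, Slc32a1 with Sst, and Sst with Npy, so these neighbours cannot be ordered. The last places were again those of Pvalb (1.52 ± 0.192), Calb1 (0.515 ± 0.0385) and Vip (0.0217 ± 0.0191). Thus Sst and Npy led in WT, while in every Fmr1-KO library both were below Cck, Gad2 and Gad1. The places of Gad1, Gad2, Slc32a1 and Cck among themselves depended on which transcripts set the length.

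**Figure D3:**
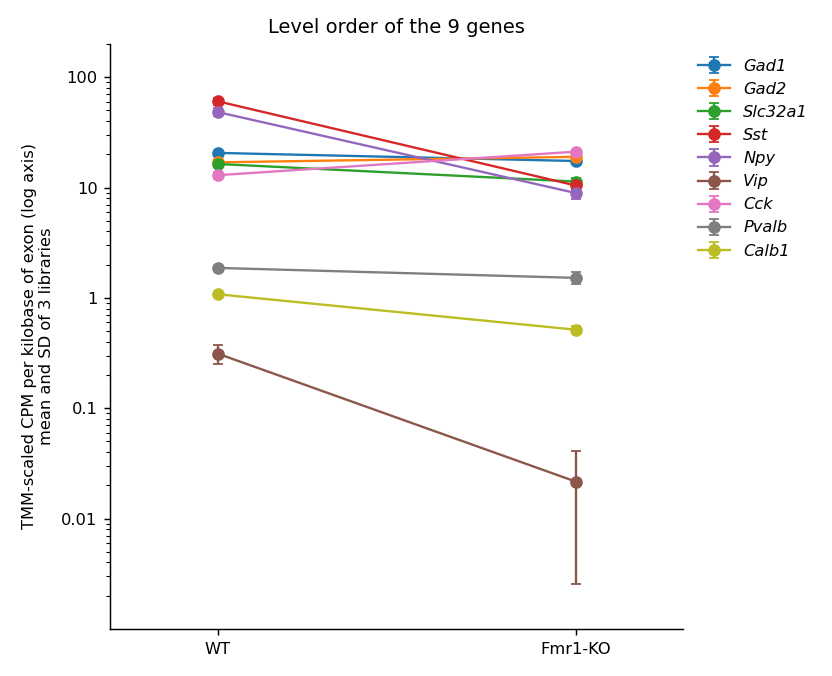
Mean level per kilobase of exon (y axis, log scale) of each gene in WT and in Fmr1-KO, with the SD of 3 libraries. The lines of Sst and Npy run from the top in WT (60.5 and 48.4) to below Cck, Gad2 and Gad1 in Fmr1-KO (10.4 and 8.92), where the libraries of Slc32a1 and Sst overlap.

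To compare the changes without any scaling between libraries, members were divided by one another within a library. Such a ratio is read only between genotypes, since the genes differ in length. With 3 libraries against 3, the exact permutation test cannot give a P below 0.1, and 7 ratios were compared. The counts of Gad1 per 100 counts of Gad2 were 157, 153 and 165 in WT and 121, 115 and 121 in Fmr1-KO. All mutant libraries were lower, so the balance between the enzymes shifted toward Gad2 in each of them (log2 difference -0.41, exact permutation test, 2-sided, P = 0.1, adjusted P = 0.117). This difference rested on small changes of opposite sign.

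Relative to the sum of Gad1 and Gad2, Sst stood at 15.7, 17.4 and 17.9 counts per 100 in WT and at 3.42, 2.85 and 2.99 in Fmr1-KO. Npy stood at 9.60, 11.1 and 11.2 per 100 in WT and at 2.11, 1.87 and 2.21 in Fmr1-KO. Both peptide mRNAs were therefore lower per Gad transcript in each mutant library, by 5.52-fold for Sst and 5.17-fold for Npy. Slc32a1 fell from 17.8 ± 1.44 to 13.0 ± 0.674 counts per 100 (SD, n = 3 libraries per genotype), and Calb1 from 2.04 ± 0.103 to 1.02 ± 0.0309. Cck was higher, with 6.57 ± 0.337 in WT and 11.3 ± 0.376 in Fmr1-KO. For each of these 5 ratios the genotypes did not overlap, and the exact permutation test gave the smallest P it can, 0.1 (adjusted P 0.117). Vip had fewer than 10 counts per mutant library and was not divided.

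Npy was compared with Sst directly after their values had been seen. There were 61.3, 64.1 and 62.7 counts of Npy per 100 counts of Sst in WT and 61.8, 65.7 and 73.8 in Fmr1-KO. These ratios overlapped, with a log2 difference of 0.09 (exact permutation test, 2-sided, P = 0.3), so a difference between the decreases of the peptides was not detectable with these libraries. The test is too small to show that they were equal.

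**Figure D4:**
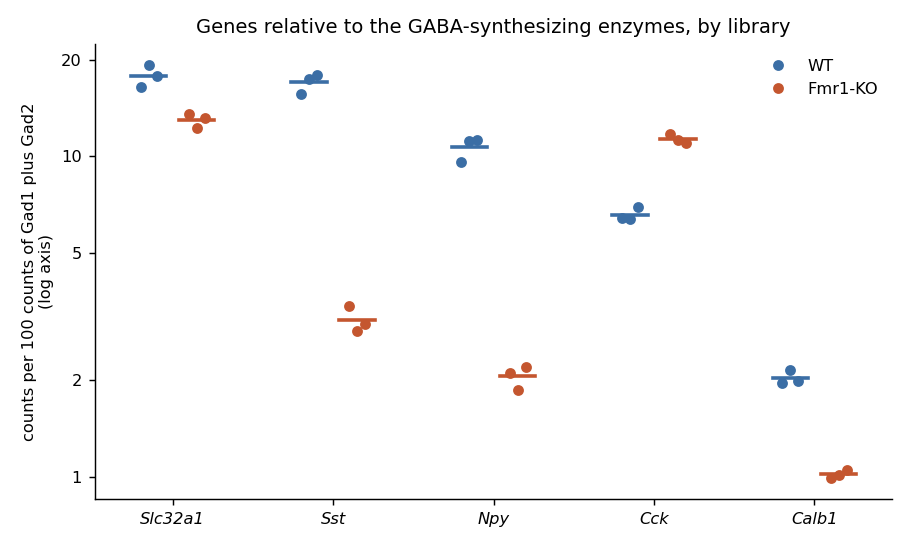
Counts of each gene per 100 counts of Gad1 plus Gad2 (y axis, log scale) in each WT (blue) and Fmr1-KO (orange) library, with the mean as a line. Sst drops from about 17.0 to 3.09 and Npy from 10.7 to 2.06, while Cck is higher in each mutant library.

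The lists that follow are to be read beside all tested genes, of which 21.9% were called lower and 20.7% higher. Other genes of the GABA pathway changed in both directions. Of 6 tested genes for GABA reuptake and breakdown, 3 were called lower and 1 higher, with a median log2 fold-change of -0.08. The largest changes were those of Slc6a13, a GABA transporter of low level here (-0.66, SE 0.15), Abat, the transaminase that breaks GABA down (-0.20, SE 0.03), and Aldh9a1 (0.18, SE 0.04). Of 6 genes that supply glutamate and glutamine, 3 were lower and 2 higher, with a median of -0.05. Slc1a1, a neuronal glutamate transporter, fell by 0.75 on the log2 scale (SE 0.04), and Slc38a3 rose by 0.26. Each of these 5 named genes passed the threshold by edgeR, and Abat, Aldh9a1 and Slc38a3 did not when a 1.2-fold change was required.

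Among further interneuron subtype genes, most that passed the test were lower. Of 20 such genes, all tested, 13 were called lower and 1 was called higher, with a median log2 fold-change of -0.74 against 0.01 for all genes. Lamp5, a marker of neurogliaform cells, fell from 2.82 ± 0.282 to 0.519 ± 0.187 CPM (SD, n = 3), a log2 fold-change of -2.43. Tac1, the gene for substance P, fell from 2.49 ± 0.193 to 0.469 ± 0.114 CPM, a log2 fold-change of -2.40. Cort, a relative of Sst, fell from 0.834 ± 0.285 to 0.214 ± 0.0170 CPM (-1.94). The adjusted P values by edgeR were 9.04e-09, 7.20e-09 and 0.000106. Lamp5, Tac1 and Cort are all of low level, below 3 CPM in WT. Cort had 7, 6 and 8 counts in Fmr1-KO and, like Vip, passed the filter on low counts through its WT libraries alone. The same holds for Crh and Crhbp, which are also among the 13. Genes this low in Fmr1-KO could be tested only if they were higher in WT. Pdyn, the gene for dynorphin, was the 1 called higher (0.90, SE 0.10) and is named after its value was seen. Genes of higher level, also named after their values were seen, changed to differing degrees. Mean Reln fell from 171 to 52.8 CPM (-1.70), Cxcl14 from 46.3 to 22.6 CPM (-1.04) and Nos1 from 31.2 to 15.4 CPM (-1.02). Calb2 was called lower with a small change (-0.14). Cnr1 (178 CPM in WT, 0.06) and Htr3a (9.83 CPM in WT, -0.20) were not called. Leaving out Fmr1-KO replicate 2 raised the number of genes called higher from 1 to 2 and left 11 called lower. A stricter filter on low counts left 10 called lower, and DESeq2 called 11 lower.

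Genes listed as transcription factors of the interneuron lineage were called in both directions. The list also holds Dlx6os1, a non-coding RNA from the strand opposite Dlx6 (0.47, called higher). Of its 17 tested genes, 4 were called lower and 9 were called higher, and the median log2 fold-change was 0.14. Dlx2, which specifies ventral forebrain precursors, rose from 84.4 ± 2.44 to 127.2 ± 8.47 CPM (SD, n = 3), a log2 fold-change of 0.59 (SE 0.04). Nkx2-1, the determinant of the medial ganglionic eminence, rose by 0.52 (SE 0.13). The adjusted P values by edgeR were 3.01e-10 and 0.00189. Nkx2-1 lost its call when a 1.2-fold change was required, and then 1 gene of the list was called lower and 4 higher. Those that fell included Npas1 (-0.47), Lhx6 (-0.44) and Satb1 (-0.29), named after their values were seen. Lhx6 and Satb1 are expressed by Sst and Pvalb neurons after they leave the ventricular zone.

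Receptors and processing enzymes of neuropeptides changed in both directions. Of 10 tested peptide receptor genes, 4 were lower and 4 higher, with a median log2 fold-change of -0.27. The receptors Sstr4, Npy2r and Sstr1 had log2 fold-changes of -1.03, -1.02 and -0.99, all called lower by edgeR, and Sstr4 and Npy2r had fewer than 50 counts in each library. The 4 called higher, named after their values were seen, were Vipr1 (0.48), Vipr2 (0.30), Sstr2 (0.23) and Adcyap1r1 (0.16). Adcyap1r1 had the highest level of the list, with means of 317 CPM in WT and 355 CPM in Fmr1-KO. Cckar had at most 2 counts in any library and was not tested. Of 11 genes for peptide processing and dense-core granules, 7 were lower and 2 higher, with a median of -0.33. Vgf, an activity-responsive granule protein, fell by 1.70 on the log2 scale (SE 0.10), Scg2 by 1.36 (SE 0.07) and Pcsk2, a prohormone convertase, by 0.92 (SE 0.06). The 2 that rose, named after their values were seen, were Pam (0.42) and Cpe (0.31).

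Markers of other cells that the cultures could hold moved as well, and their part in the results above was not tested. Of 13 genes of striatal projection neurons, which are also GABAergic, 6 were called lower and 4 higher. They summed to 375 to 381 CPM in WT and to 313 to 329 CPM in Fmr1-KO. The largest changes among them were those of Drd1 (-1.26), Ppp1r1b (-0.91) and Six3 (0.74). Of 7 genes listed for olfactory bulb interneurons, 1 was lower (Trh, -0.98) and 3 were higher, among them Gsx2 (0.88) and Pax6 (0.52). Th (-0.32), Etv1 (-0.09) and Tshz1 (-0.06), named after their values were seen, were not called. Which cells of the cultures carried these mRNAs was not tested. Without WT replicate 3 or Fmr1-KO replicate 3, 2 of the 7 were called lower. These 7 genes summed to 825 to 835 CPM in WT and to 963 to 990 CPM in Fmr1-KO. Most of that sum was Meis2 alone (494 CPM in WT and 608 CPM in Fmr1-KO), named after its value was seen. The median log2 fold-change of the list was -0.06, so the sum does not stand for the list as a whole.

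Excitatory and pan-neuronal genes gave a further comparison. Of 11 excitatory neuron genes, 4 were lower and 5 higher, summing to 724 to 734 CPM in WT and 697 to 726 CPM in Fmr1-KO. Slc17a7, the vesicular glutamate transporter VGLUT1, fell from 20.2 ± 0.498 to 3.69 ± 0.0893 CPM (SD, n = 3), a log2 fold-change of -2.45 (SE 0.08; adjusted P 1.69e-15 by edgeR). A decrease as large as that of Npy was thus also found for an mRNA of glutamatergic neurons. Slc17a6 and Camk2a had log2 fold-changes of -0.56 and -0.42. The 5 called higher, named after their values were seen, were Fezf2 (0.29), Neurod2 (0.22), Tbr1 (0.21), Neurod6 (0.16) and Bcl11b (0.09). The median of the excitatory list was 0.00168. Of 8 pan-neuronal genes, 7 were lower and 1 higher, with a median of -0.46, and they summed to 4823 to 4953 CPM in WT and 4202 to 4401 CPM in Fmr1-KO. Syt1, Rbfox3 and Stmn2 had the largest of these changes (-0.84, -0.72 and -0.65). The 1 called higher was Dcx (0.08), named after its value was seen, and that call was lost when replicate 1 or 3 of WT, or replicate 3 of Fmr1-KO, was left out.

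Among markers of other cells, proliferation genes were higher (6 of 6 called), with sums of 332 to 375 CPM in WT and 616 to 684 CPM in Fmr1-KO, led by Mki67 (1.09), Top2a (0.86, with an exon overlap on its own strand) and Aurkb (0.70). Oligodendrocyte lineage genes were lower (8 of 8 called, sums of 1884 to 2046 CPM in WT and 1075 to 1159 CPM in Fmr1-KO), led by Mog (-1.23), Mbp (-0.92) and Olig2 (-0.74). Mbp was the largest part of that sum (1055 CPM in WT and 557 CPM in Fmr1-KO), and the list median was -0.72. Microglial genes were lower for 5 of 6, with sums of 120 to 134 CPM in WT and 76.0 to 83.3 CPM in Fmr1-KO, led by Aif1 (-1.07), C1qa (-1.05) and P2ry12 (-0.51). Without WT replicate 1 only 3 of these were called, and P2ry12 was not called without WT replicate 1, 2 or 3 or Fmr1-KO replicate 3. Astrocyte genes were lower for 4 and higher for 1 of 7, summing to 4775 to 4896 CPM in WT and 4140 to 4523 CPM in Fmr1-KO, with S100b (-0.94), Aqp4 (-0.72) and Gja1 (0.30) changed most. Gfap alone made up most of the astrocyte sum (2649 CPM in WT and 2297 CPM in Fmr1-KO), and the list median was -0.13. Aldh1l1 (0.05) and Slc1a3 (0.03) were not called. Gfap, Aldh1l1 and Slc1a3 are named after their values were seen. Of 5 tested endothelial and mural genes, 2 were lower (Rgs5, -0.91, and Cdh5, -0.66) and 2 higher, Pdgfrb (0.47) among them. These 5 summed to 70.6 to 77.7 CPM in WT and 79.1 to 83.5 CPM in Fmr1-KO. Most of that sum was Pdgfrb alone (46.9 CPM in WT and 65.1 CPM in Fmr1-KO). Cdh5 lost its call without WT replicate 1, and 1 rather than 2 were called higher without any 1 of WT replicates 1, 2 and 3 or Fmr1-KO replicates 2 and 3.

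**Figure D5:**
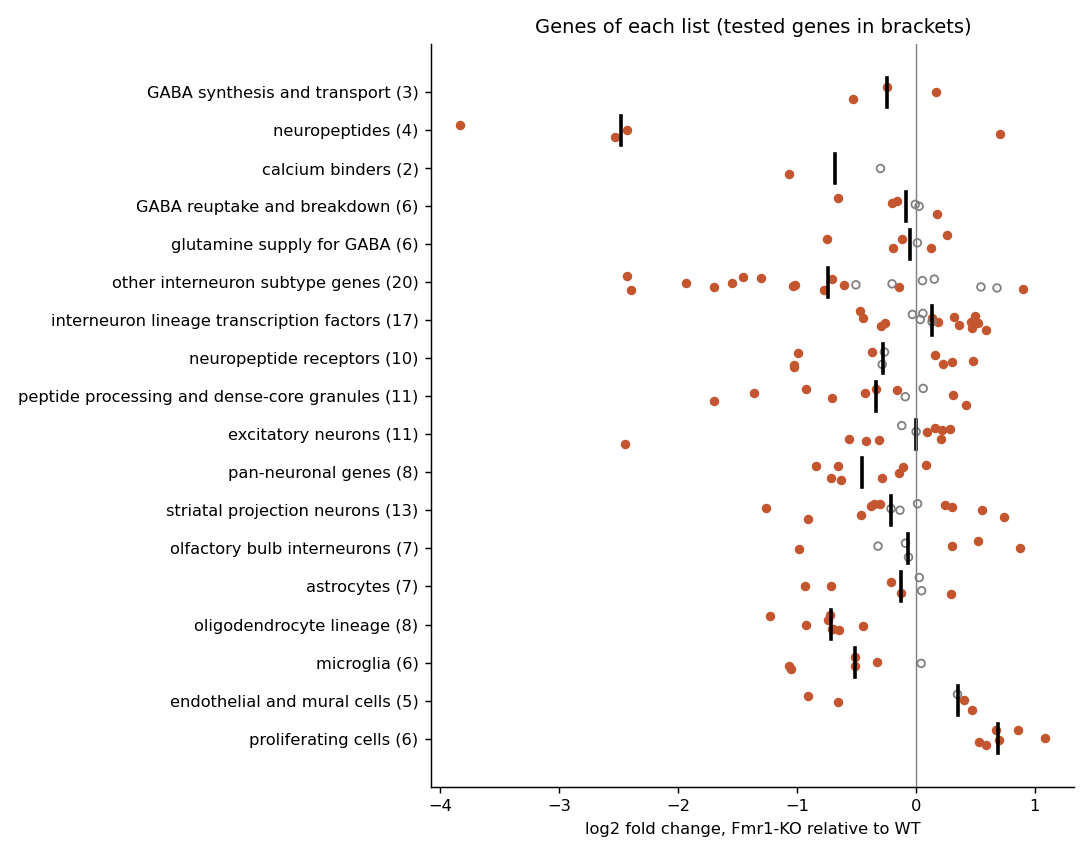
Log2 fold-change in Fmr1-KO relative to WT (x axis) of each tested gene of 18 lists, the first 3 being the members; filled points passed an adjusted P of 0.05 by edgeR, open points did not, and vertical bars are list medians. Further interneuron subtype genes (median -0.74) lie mostly left of 0, and interneuron lineage transcription factors (0.14) lie on both sides of it.

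The study asked about mRNAs that are removed by nonsense-mediated decay. Of the 9 members, 0 were on its list of such targets, which had been defined in a neuroblastoma line. That list holds 1027 names, and 16976 genes were tested here, so 9 genes are too few to show an absence. The paper cautions that targets not expressed in that line would be missed. Whether any member is such a target in these cells was not tested.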

How the data were processed

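mRNA libraries of P1 cortical cells at 2DIV (3 WT, 3 Fmr1-KO) were made with a stranded kit. The authors deposited raw counts per gene name, not normalized. Per their methods, FastP trimmed the single-end reads, STAR aligned them to GRCm38.p6, and featureCounts assigned them, strand-aware, to exons. Counts by gene name merge isoforms. The exact interval of Vip covers counting error only, as reads carry no molecular identifiers, while intervals of log2 fold-changes come from the edgeR fit and include spread between libraries. All 6 libraries were grouped by genotype from their labels.

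Genotypes were compared across all genes with edgeR 4.0.16 in R 4.3.3 (filterByExpr, TMM, glmQLFit and glmQLFTest, 2-sided, Benjamini-Hochberg adjustment over 16976 genes), with genotype as the only term. Counts were also simulated from the spread fitted to these libraries, with 200 genes changed by 1 log2 unit. The test recovered 100% of them in the right direction and falsely called 0.0787% of the others (16712 genes tested). The changed genes were drawn above a minimum level that Vip and Pvalb did not reach. Changes as small as those of Gad1 and Gad2 were not simulated, and far fewer genes changed than were called here. These rates therefore do not carry over to the calls of those members. SE is the log2 fold-change divided by the square root of F. Exon lengths and coordinates came from GENCODE M21 (GRCm38), promoter windows from RefSeq (GRCm38.p6). DESeq2 1.42.0 served as an alternative. From each list, the 3 called genes with the largest absolute log2 fold-change are named, except that some items are not reported here. Members and lists were chosen with earlier results of these data known. The labels name no batch. Total counts were 30348556 to 35126207 per library, and spread within a genotype exceeded counting noise (chi-square per degree of freedom 2.92 in WT and 3.17 in Fmr1-KO).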

Additional observations from a re-analysis of the deposited data

How the results depend on the processing

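Directions of all 9 members held under each alternative (RLE, upper-quartile and library-total scaling, DESeq2, no filter, a stricter filter that Vip did not pass, a replicate block, a 1.2-fold minimum, and leaving out each library). Across these, the log2 fold-change ran from -2.58 to -2.47 for Sst, from -2.53 to -2.36 for Npy, from -4.43 to -3.22 for Vip, from -0.29 to -0.22 for Gad1 and from 0.14 to 0.20 for Gad2. With a 1.2-fold minimum, which calls fewer genes by construction, 1340 genes were lower and 883 higher, and 1 member (Cck) was called higher instead of 2. Calls lost with it included those of Gad1, Gad2, Abat, Aldh9a1, Slc38a3, Nkx2-1, Gja1, P2ry12 and Cdh5, and it left 4 of 7 pan-neuronal genes lower, 2 of 4 astrocyte genes lower, and 0 of 4 receptor and 0 of 5 excitatory genes higher. Single-gene calls held in 749 of 765 refits of 55 genes, and 16 were weaker. Of 252 list medians, 15 moved by more than the spread between replicates. Among them, the endothelial and mural median changed from 0.35 to -0.12 with the stricter filter, to -0.16 without a filter and to 0.07 without WT replicate 2, and the olfactory bulb median from -0.06 to 0.12 with the stricter filter. The excitatory neuron median (0.00168) was -0.0318 without Fmr1-KO replicate 2. Taking the longest transcript as length put Gad1, Cck and Gad2 in places 1, 2 and 3 in Fmr1-KO, and Cck, Gad2 and Slc32a1 in places 4, 5 and 6 in WT. Same-numbered libraries did not deviate together (r = -0.0267, 0.0304 and -0.0172 across genes). The replicate block gave 3694 lower and 3488 higher calls and changed that of no member. The stricter filter left 2 of 4 receptor genes called lower. DESeq2 called 3 of 5 microglial genes lower. The causes of these shifts were not tested. Counting error limits Vip.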

Other observations

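Tested genes whose mean reached 10 CPM were ranked by how closely their log2 CPM, centred on the mean of the 6 libraries, followed that of a member. Closest to Gad1 among 10762 genes were Kcnab2, Acvr1 and Lgi4, with root mean square differences of 0.0200, 0.0229 and 0.0232 on the log2 scale. Their own log2 fold-changes were -0.23, -0.24 and -0.22. For Vip, the called member with the largest change, the closest of 10763 genes were Prss12, Ddn and Nwd2, at 1.15, 1.16 and 1.24. Vip had 4, 3 and 0 counts in Fmr1-KO, where counting error is large, while every gene compared reached 10 CPM. Its differences therefore cannot be read against those of Gad1. The measure is a description over 6 libraries of 2 genotypes.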
